A study of Mus musculus with 10 samples.

Results

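The genes described here encode the ion channels of the sperm plasma membrane: the CatSper calcium channel, the potassium channel Kcnu1 (Slo3) and the proton channel Hvcn1. They were chosen by name and not by a measured value, although earlier results of these data were known. They comprise Catsper1, Catsper2, Catsper3, Catsper4, Catsperb, Catsperd, Catsperg1, Catsperg2, Kcnu1 and Hvcn1, which makes 10 of the 15507 genes in the expression table. All 10 were found in the table and all 10 passed the filter on low values. RNA-Seq was performed on testicular germ cells from 5 wild-type (WT) mice and 5 homozygous GRTH knock-in (KI) mice, with 1 library per mouse. The mice were 45 days old. GRTH, encoded by Ddx25, is a testicular RNA helicase, and the KI mice carry in its place the human gene with an arginine-to-histidine missense mutation found in infertile men. The mice of both groups share the same cell preparation, made by enzymatic dispersion of the testis, which holds spermatogonia, spermatocytes and spermatids. According to the study, KI spermatids stop before elongation, and KI mice lack elongating spermatids and sperm.

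CatSper is a calcium channel of the sperm tail that opens on alkalinization and is needed for the vigorous tail beat called hyperactivation. Its pore is built by CATSPER1 to CATSPER4, each from a gene of its own, and auxiliary subunits hold the complex in the tail membrane. KCNU1 carries the alkalinization-activated potassium current of mouse sperm, and HVCN1 lets protons leave a cell. Transcripts for the sperm tail are made in spermatocytes and round spermatids, ahead of the stage at which the tail is assembled.

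The libraries held 12722086 to 16422347 reads on genes. Ddx25 ranged from 5198 to 11101 normalized counts in WT; the normalized count is the number of reads scaled by the size factor of its library. In KI libraries 1, 2 and 3 it was 146, 194 and 161, and in KI libraries 4 and 5 it was 2.88 and 1.84, so the labels held in every library but the KI libraries fell into sets. The second principal component of the 500 most variable genes also set libraries 4 and 5 of both genotypes apart from libraries 1 to 3. The labels name no batch, so the fold change of each channel gene is also given within the sets. Germ cell identity was present in all libraries, with 16630 to 23980 summed normalized counts of 8 spermatocyte markers in WT and 15400 to 20280 in KI.

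Of the 10 channel genes, 5 were down-regulated in KI (Catsper1, Catsper2, Catsper3, Catsperg1 and Kcnu1) and 1 was up-regulated (Hvcn1), at an adjusted p under 0.05 in limma with Benjamini-Hochberg adjustment over 15389 genes. Among all genes tested, 13.3% were lower and 9.65% were higher by the same criterion, or 22.9% in either direction. The remaining 4 genes, Catsper4, Catsperb, Catsperd and Catsperg2, did not pass. The changes were small: with a fold change of at least 1.5 as well, Catsperg1 alone was called lower and Hvcn1 alone higher, against 8.22% and 6.13% of all genes (14.4% in either direction). Catsper1 and Catsper3 only just missed this fold, with log2 fold changes of -0.584 and -0.579 against -0.588 for Catsperg1. The number lower with fold was 0 to 3 across the alternatives. For the same 6 genes the WT and KI libraries did not overlap, which held for 10.9% of all genes below WT and 6.80% above. The median log2 fold change was -0.37 for the 10 genes and 0.03 for all genes. Their summed normalized counts were 22210 ± 1326 in WT and 17320 ± 1312 in KI (exact permutation test, two-sided, p = 0.00794). As a percent of the reads on genes, the 10 genes made up 0.139 ± 0.00609 in WT and 0.128 ± 0.0131 in KI. These percents overlapped between the groups (exact permutation test, two-sided, p = 0.119). Another scaling of the libraries shifts all genes alike, and the number of these genes called lower was then 4 under scaling to library totals, 3 under scaling on spermatocyte markers and 0 under scaling on round spermatid markers. In libraries 4 and 5 alone, with 2 libraries a group, Catsper2, Catsperg1, Kcnu1 and Hvcn1 did not pass (limma adjusted p = 0.0940, 0.0856, 0.0515 and 0.102), although each kept its direction, whereas Catsper4 passed (adjusted p = 0.0221).

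**Figure D1:**
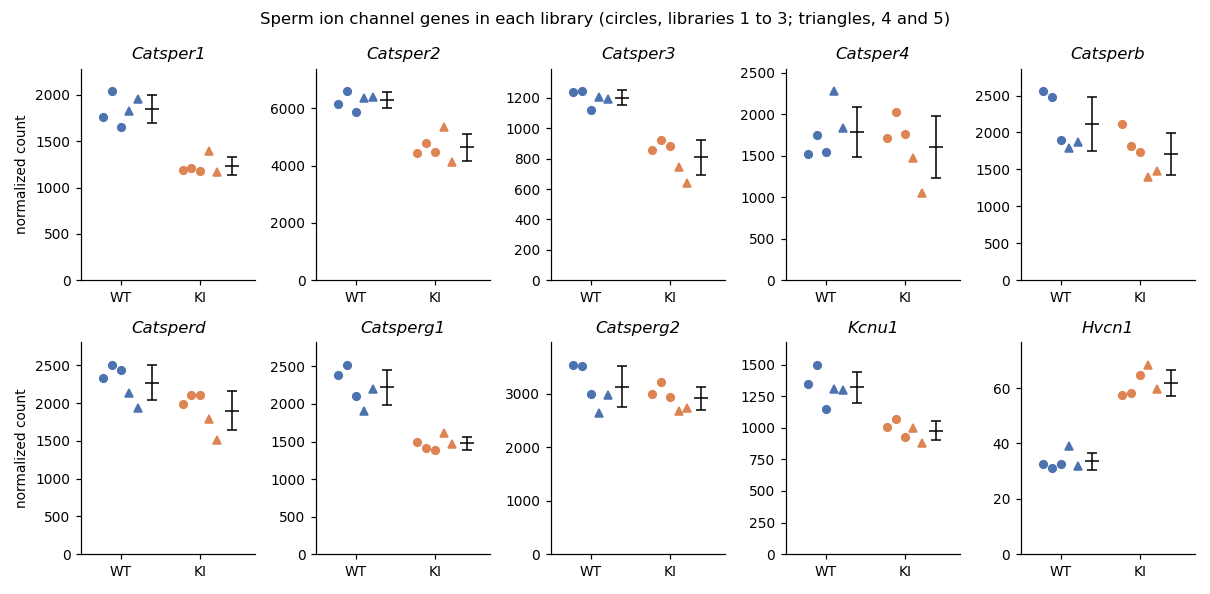
Normalized count (vertical axis, from 0, with its own range in each panel) of each of the 10 genes in 5 WT and 5 KI libraries; circles are libraries 1 to 3, triangles libraries 4 and 5, and the black bar is the mean with its SD. The WT and KI points do not overlap for Catsper1, Catsper2, Catsper3, Catsperg1, Kcnu1 and Hvcn1, and they overlap for the remaining 4 genes.

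The pore-forming subunits came first. Catsper1 (chr19:5335625-5344281, plus strand, mm10; these and the following gene limits are those of the authors' table, whose end lies 1 base past that of RefSeq) encodes a pore subunit without which male mice are infertile. Its normalized counts were 1767, 2039, 1655, 1821 and 1951 in WT libraries 1 to 5 and 1191, 1212, 1183, 1397 and 1173 in KI libraries 1 to 5. Every KI library was below every WT library. Catsper1 fell from 1847 ± 152 to 1231 ± 93.9 (SD, n = 5 each), and the log2 fold change was -0.58 with an SE of 0.088 (adjusted p = 2.00e-04 in limma). Within libraries 1 to 3 the log2 fold change was -0.60, and within libraries 4 and 5 it was -0.56.

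Catsper2 (chr2:121394355-121413793, minus strand) was the most abundant of the 10. Its normalized counts were 6138, 6596, 5871, 6366 and 6410 in WT and 4428, 4799, 4461, 5361 and 4133 in KI, again without overlap, although KI library 4 came near the lowest WT library. The mean fell from 6276 ± 279 to 4636 ± 469 (log2 fold change -0.44 with SE 0.090, adjusted p = 0.00226 in limma). The fold change was the same in both library sets, -0.44 and -0.44.

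Catsper3 (chr13:55784579-55809001, plus strand) had 1240, 1244, 1123, 1205 and 1192 normalized counts in WT and 857, 920, 884, 743 and 643 in KI. The WT libraries were close together, with a coefficient of variation of 4.05%, and KI libraries 4 and 5 were the lowest of all. The mean fell from 1201 ± 48.7 to 810 ± 114 (log2 fold change -0.58 with SE 0.103, adjusted p = 7.61e-04 in limma). Libraries 1 to 3 alone gave -0.44 and libraries 4 and 5 alone -0.79. That difference between the sets did not pass the test (limma interaction, adjusted p = 0.231).

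Catsper4 (chr4:134211968-134227384, minus strand) was the pore subunit that did not pass. Its normalized counts were 1523, 1757, 1546, 2280 and 1831 in WT and 1718, 2032, 1762, 1470 and 1050 in KI. In libraries 1 to 3 each KI value was above the WT value of the same number, and in libraries 4 and 5 each was below it. The means were 1787 ± 306 and 1606 ± 369 (log2 fold change -0.17, SE 0.159, limma adjusted p = 0.488). Libraries 1 to 3 alone gave 0.19 and libraries 4 and 5 alone -0.72. The difference of -0.91 (SE 0.194) had an unadjusted p of 2.11e-04 and an adjusted p of 0.0625 (limma interaction over all genes), where 38 of 15389 genes passed. All 7 round spermatid markers were also lower relative to WT in libraries 4 and 5 than in libraries 1 to 3, with differences of -0.73 to -0.24 on the log2 scale, none of which passed (lowest adjusted p = 0.0747, limma interaction). Their part in the Catsper4 values was not tested.

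**Figure D2:**
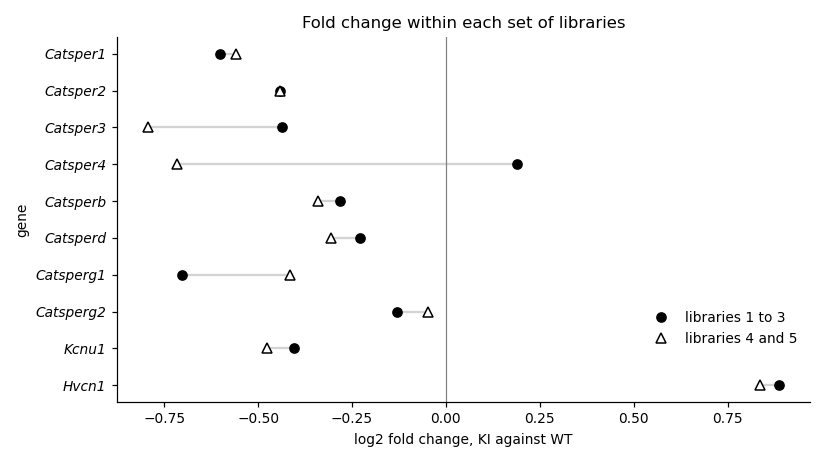
Log2 fold change of KI against WT (horizontal axis) for each gene within libraries 1 to 3 (filled circles) and within libraries 4 and 5 (open triangles). Catsper4 lies at 0.19 in the first set and -0.72 in the second, whereas the other 9 genes keep their sign.

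Normalized counts per kilobase of the longest protein-coding transcript allow levels to be compared between genes. In WT, Catsper2 was highest at 2793 ± 124 per kilobase, followed by Catsper4 at 1036 ± 177, Catsper3 at 903 ± 36.6 and Catsper1 at 844 ± 69.3. Catsper2 did not overlap any other pore gene, whereas the last 3 overlapped one another from neighbour to neighbour. Catsper2 made up 56.5% ± 1.24 of the summed normalized counts of the pore genes in WT and 56.0% ± 3.09 in KI (exact permutation test, two-sided, p = 0.722, adjusted p = 0.722 over 2 shares).

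**Figure D3:**
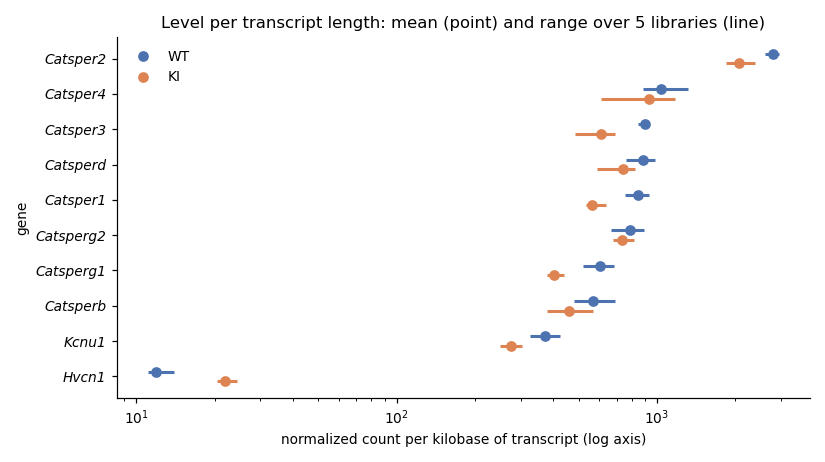
Normalized count per kilobase of transcript (horizontal log axis) for the 10 genes, ordered by WT mean; points are means and lines the range over 5 libraries, WT above KI. Catsper2 is highest at 2793 in WT, the next 7 genes lie between 570 and 1036 with neighbours overlapping, and Hvcn1 is lowest at 11.9.

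Among the auxiliary subunits, Catsperg1 and Catsperg2 are similar copies on chromosome 7 that both encode CatSper gamma. Their coding sequences were identical at 3310 of 3432 aligned bases (96.4%). A stretch of 120 coding bases near the start of each is shown, since their likeness decides how well reads can be told apart; coding bases 2 to 121 are given, from mm10, at chr7:29210794-29210913 and chr7:29725349-29725468 on the minus strand, with the 4 bases that differ in capitals.
Catsperg1: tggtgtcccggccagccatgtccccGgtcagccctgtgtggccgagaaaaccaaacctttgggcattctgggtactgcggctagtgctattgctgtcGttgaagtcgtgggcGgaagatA
Catsperg2: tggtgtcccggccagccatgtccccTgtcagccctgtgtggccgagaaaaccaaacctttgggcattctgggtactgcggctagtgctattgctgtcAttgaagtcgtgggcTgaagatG
Of all windows of 150 bases, the length of 1 read, 10.7% of those in the Catsperg1 transcript occur unchanged in that of Catsperg2. The authors' quantification, the E/M model of Partek, divides reads that match both by estimation, so the separate values of the copies are less certain than their sum.

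Catsperg1 (chr7:29181532-29214034, minus strand) had 2381, 2517, 2106, 1913 and 2198 normalized counts in WT and 1496, 1411, 1387, 1610 and 1467 in KI. No KI library reached the lowest WT library. The mean fell from 2223 ± 236 to 1474 ± 87.3 (log2 fold change -0.59 with SE 0.091, adjusted p = 2.56e-04 in limma), with -0.70 in libraries 1 to 3 and -0.42 in libraries 4 and 5.

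Catsperg2 (chr7:29697219-29727033, minus strand) had 3534, 3521, 3000, 2636 and 2967 normalized counts in WT and 2998, 3224, 2938, 2676 and 2736 in KI. The groups overlapped. The means were 3131 ± 388 and 2915 ± 219 (log2 fold change -0.10, 95% confidence interval -0.31 to 0.11, limma adjusted p = 0.538), and the sign was positive under scaling to library totals (0.13). Libraries 1 to 3 alone gave -0.13 and libraries 4 and 5 alone -0.05.

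The copies differed in proportion, a measure that no scaling of libraries can change. Catsperg1 made up 40.3%, 41.7%, 41.2%, 42.1% and 42.6% of the summed gamma counts in WT and 33.3%, 30.4%, 32.1%, 37.6% and 34.9% in KI. The highest KI library was below the lowest WT library, and this held in both library sets. The mean share was 41.6% ± 0.873 in WT and 33.7% ± 2.73 in KI (exact permutation test, two-sided, p = 0.00794, the smallest that 5 against 5 libraries can give; adjusted p = 0.0159 over 2 shares). The sum of both copies was 5354 ± 618 in WT and 4389 ± 174 in KI (exact permutation test, two-sided, p = 0.0159). Unlike the share, this sum depends on the scaling, and no other scaling was tried for it. The normalized counts of all genes together were also lower in KI, with a mean of 13620000 against 15950000 in WT (exact permutation test, two-sided, p = 0.00794).

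**Figure D4:**
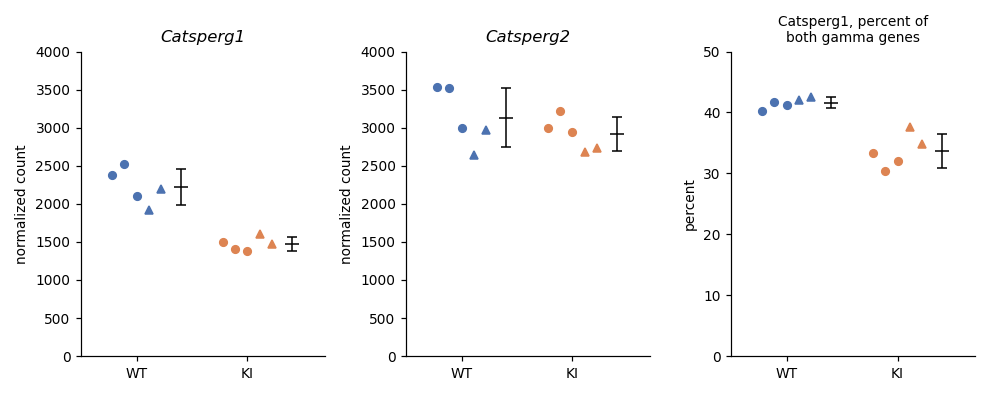
Normalized counts of Catsperg1 and Catsperg2 and the percent of Catsperg1 in their sum (vertical axes from 0) in WT and KI; circles are libraries 1 to 3, triangles libraries 4 and 5, and black bars the mean with its SD. The Catsperg1 share lies at 40.3% to 42.6% in WT and at 30.4% to 37.6% in KI.

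Catsperb and Catsperd encode the auxiliary subunits beta and delta. Catsperb (chr12:101404673-101626010, plus strand) had 2558, 2473, 1897, 1788 and 1868 normalized counts in WT and 2117, 1816, 1741, 1402 and 1485 in KI. Catsperd (chr17:56627047-56664457, plus strand) had 2339, 2504, 2434, 2134 and 1939 in WT and 1983, 2113, 2113, 1791 and 1512 in KI. Both genes overlapped between the groups, yet each KI library was below the WT library of the same number. The log2 fold change was -0.30 for Catsperb (SE 0.132, limma adjusted p = 0.115) and -0.26 for Catsperd (SE 0.109, limma adjusted p = 0.104). Within libraries 1 to 3 they were -0.28 and -0.23, and within libraries 4 and 5 they were -0.34 and -0.31. With the replicate number as a block the adjusted p was 0.00565 for Catsperb and 0.00923 for Catsperd (limma), which brought the genes called lower from 5 to 7. A term for library set in place of the block gave 7 as well (limma adjusted p = 0.0145 and 0.0122).

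Kcnu1 (chr8:25849623-25937935, plus strand) had 1349, 1495, 1149, 1310 and 1297 normalized counts in WT and 1009, 1069, 927, 995 and 880 in KI. The groups did not overlap. The mean fell from 1320 ± 124 to 976 ± 73.6 (log2 fold change -0.43 with SE 0.092, adjusted p = 0.00301 in limma), with -0.40 in libraries 1 to 3 and -0.48 in libraries 4 and 5. Scaling to library totals ended this call (log2 fold change -0.20, adjusted p = 0.0876).

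Lrrc52, the auxiliary subunit of KCNU1, was not lower in KI. Its mean was 294 ± 30.9 in WT and 369 ± 60.6 in KI (log2 fold change 0.32, limma adjusted p = 0.0838, and 0.0486 with the replicate block). The ratio of Kcnu1 to Lrrc52 normalized counts was 4.13, 4.68, 4.46, 4.91 and 4.31 in WT and 2.44, 3.04, 2.09, 2.88 and 3.04 in KI. All KI ratios were below all WT ratios; the ratio was chosen after the values were seen and carries no test. Of the 4 Slo channels and partners measured, 0 passed in limma or edgeR, whereas DESeq2 called 1 lower; at an unadjusted p under 0.05 in limma, 1 was lower and 1 higher. Without WT2 1 was called lower, and without KI5 or with the replicate block 1 was called higher. For all genes tested, 22.9% passed in either direction in limma.

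Hvcn1 (chr5:122209729-122242298, plus strand) was the gene that rose. It was also the least abundant, with 27 to 71 reads per library. Its normalized counts were 32.4, 31.2, 32.6, 39.1 and 32.0 in WT and 57.5, 58.2, 64.9, 68.3 and 59.8 in KI, so that every KI library was well above every WT library. The mean rose from 33.5 ± 3.20 to 61.7 ± 4.65 (log2 fold change 0.87 with SE 0.153, adjusted p = 7.40e-04 in limma), with 0.89 in libraries 1 to 3 and 0.83 in libraries 4 and 5. Of all genes tested, 96.2% had a lower log2 fold change.

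HVCN1 is also a known protein of phagocytes and B cells, and some markers of other testis cells were also higher in KI. By the same limma criterion, 9.65% of all genes tested were higher and 13.3% lower. Of 8 macrophage markers, 5 rose (Csf1r, Cd68, Cd14, C1qa and Lyz2) and 0 fell (also 0 at an unadjusted p under 0.05, limma); their summed normalized counts ranged from 743 to 948 in WT and from 1083 to 1417 in KI. The Cd14 call (adjusted p = 0.0469, limma) was lost without any 1 of 8 of the 10 libraries and in either library set alone. Of 7 Leydig cell markers 4 were called higher, but 1 without WT1 or WT3, 2 without WT4, 6 without KI4, and 7 without WT2 or with the replicate block. Of 8 Sertoli cell markers 1 was called higher, and 0 without any 1 of 8 of the 10 libraries; of the 4 peritubular myoid markers tested 2 were, and 1 without WT1, WT2, WT3, KI1, KI3, KI4 or KI5. The median log2 fold change of the Sertoli cell markers was 0.19, and -0.25 in libraries 4 and 5 alone. The myoid markers Myh11 and Tagln had log2 fold changes of -0.30 and -0.23 and did not pass (limma adjusted p = 0.283 and 0.442). The leukocyte gene Ptprc was at 18.1 in WT and 31.6 in KI (limma adjusted p = 0.0551), and no macrophage marker was at 0, the lowest WT mean being that of Cd68 at 18.2. In these bulk libraries, fewer cells of a type and less RNA per cell cannot be told apart, and the part of other cells in the Hvcn1 values was not tested. By the GENCODE annotation, 1574 of the 3563 exon bases of Hvcn1 overlap Tctn1 on the opposite strand, and no source used here says whether strand entered the counting; Tctn1 was at 898 ± 123 in WT and 987 ± 113 in KI (limma adjusted p = 0.405).

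Of the 8 other CatSper subunit genes measured, 3 were lower in KI, 0 higher and 5 not called in limma. The number higher was also 0 by edgeR, by DESeq2 and at an unadjusted p under 0.05. For all genes tested, 13.3% were lower and 9.65% higher in limma. Efcab9, the calcium-binding partner of CATSPERZ in the complex, had 1832, 1728, 1552, 1426 and 1466 normalized counts in WT and 937, 1028, 1052, 757 and 594 in KI. It fell from 1601 ± 174 to 874 ± 195, with a log2 fold change of -0.90 (adjusted p = 3.31e-04 in limma). Tmem262, the CatSper eta subunit, fell from 312 ± 9.08 to 170 ± 27.5 (log2 fold change -0.88, adjusted p = 6.24e-05), and Slco6c1, an organic anion transporter found in the complex, from 4428 ± 466 to 3292 ± 238 (-0.42, adjusted p = 0.00390). None of these 3 genes overlapped between groups. The Slco6c1 call was lost under scaling to library totals or on either marker list, where 2 of the 8 were called, and in libraries 4 and 5 alone. Catsperz, Catspere1, Catspere2, C2cd6 and Trim69 had log2 fold changes of -0.20, -0.07, -0.18, -0.30 and -0.18 and did not pass; C2cd6 passed with the replicate block (adjusted p = 0.0412). Catspere1 is annotated as an unprocessed pseudogene, and 587 exon bases of Catsperz are shared with Kcnk4 on the same strand. The ratio of Efcab9 to Catsperz, whose proteins bind each other, was 0.265 ± 0.0366 in WT and 0.162 ± 0.0121 in KI without overlap; it too was chosen after the values were seen.

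**Figure D5:**
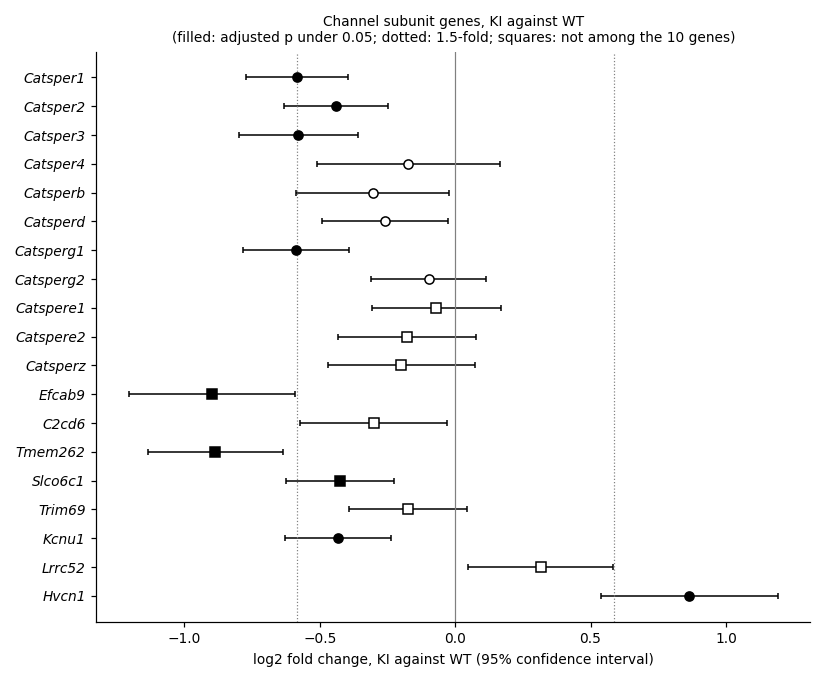
Log2 fold change of KI against WT (horizontal axis) with its 95% confidence interval for the 10 genes (circles) and for the other CatSper subunits and Lrrc52 (squares); filled symbols passed an adjusted p under 0.05 and dotted lines mark a fold of 1.5. Efcab9 and Tmem262 lie lowest at -0.90 and -0.88, and Hvcn1 highest at 0.87.

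The genes that set the pH and the sodium gradient under which these channels work were counted as a list of their own. The list is named for sodium, proton and anion transport but also holds the enzyme genes Car2, Car4 and Adcy10. Of its 11 genes, 7 fell and 0 rose (limma; edgeR and DESeq2 called 0 higher, and 2 were higher at an unadjusted p under 0.05), with a median log2 fold change of -0.58. Among all genes 13.3% fell and 9.65% rose. Scaling to library totals gave 6 lower and 2 higher, scaling on round spermatid markers 3 lower and 2 higher, and libraries 4 and 5 alone 3 lower. Car2, a carbonic anhydrase, fell from 3218 ± 794 to 368 ± 112 (log2 fold change -3.15). Atp1b3 and Atp1a4, subunits of the sodium pump, fell by 1.53 and 1.14 on the log2 scale, and Slc9b1, a sodium-proton exchanger of the sperm tail, by 0.66. Adcy10, the bicarbonate-activated adenylyl cyclase, is among the 7 but lay outside the rule for named genes. It fell from 5851 ± 664 to 3937 ± 675 (log2 fold change -0.58, limma adjusted p = 0.00258).

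Of the 12 genes for calcium pumps and store release, 2 were lower, 2 higher and 8 not called. The shares among all genes were 13.3% lower and 9.65% higher. Plcz1, the sperm phospholipase that starts calcium oscillations in the egg, fell from 3199 ± 776 to 1175 ± 197 (log2 fold change -1.43), a call that held in each of the 26 alternatives. The call of the phospholipase Plcd4 (log2 fold change -0.29, limma adjusted p = 0.0421) was lost without any 1 of 9 of the 10 libraries, in edgeR with the authors' size factors, and under scaling to totals, by the upper quartile or on either marker list. The inositol trisphosphate receptor gene Itpr3 rose by 0.56, with groups that overlapped. The call of the plasma membrane calcium pump Atp2b1 (log2 fold change 0.39, limma adjusted p = 0.0349) was lost without any 1 of 6 libraries (WT1, WT2, WT4, KI1, KI4 or KI5) and in either library set alone. The counts for the list were then 1 lower and 1 higher without WT1, WT2, WT4, KI1 or KI5. Of 20 other ion channel genes tested, which include transient receptor potential, voltage-gated calcium and voltage-dependent anion channels, 0 fell and 1 rose (0 lower and 2 higher by edgeR or DESeq2, and 0 lower at an unadjusted p under 0.05 in limma): the cyclic nucleotide-gated channel Cnga3 went from 46.1 ± 4.77 to 77.8 ± 11.9 (log2 fold change 0.74, limma adjusted p = 0.00281). The median of these 20 genes was -0.03. Scaling to library totals called 5 higher, libraries 1 to 3 alone 3 lower and 2 higher, and the replicate block 1 lower and 2 higher; without KI5, 1 was lower and 1 higher. Trpm4, named for its difference between the library sets after its values were seen, was at -0.39 in libraries 1 to 3 and 0.46 in libraries 4 and 5 (limma interaction, adjusted p = 0.0294).

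The marker lists named for the germ cell stages differed in how far they were lowered, where 13.3% of all genes were lower and 9.65% higher. All 10 elongating spermatid markers fell, with a median log2 fold change of -2.39, from Akap4 at -1.85 to Prm2 at -3.30. The study describes Tnp2 and Prm2 mRNA, which are on this list, in round spermatids of WT mice before translation. The list therefore does not separate elongating from round spermatids cleanly. Of 7 round spermatid markers 3 fell (median -0.48), and their summed normalized counts ranged from 15320 to 18610 in WT and from 8359 to 15470 in KI. With the replicate block, or in either library set alone, 5 of the 7 were lower, and without KI5 the median was -0.29. Of 8 spermatocyte markers 1 fell (median -0.11, with 0 called without WT1 or KI4 and 2 lower and 1 higher with the replicate block), and of 7 spermatogonia markers 1 fell (median 0.02, with 2 higher as well under the block and 0 called without KI3). The median of the 10 channel genes was -0.37. The part of these stages in the channel gene values was not tested.

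For the 3 down-regulated channel genes that have an entry, the 250 bases before a RefSeq start site (GRCm38.p6) are shown. Whether these genes share a control was not tested. Catsper2 is at chr2:121413793-121414042 on the minus strand, Catsper3 at chr13:55784329-55784578 on the plus strand and Catsperg1 at chr7:29214034-29214283 on the minus strand. Capitals mark CGTCA, the reverse complement of the cAMP response half-site TGACG, in Catsper2, and TATAAA, the letters of a TATA box, in Catsperg1; both strands were searched.
Catsper2: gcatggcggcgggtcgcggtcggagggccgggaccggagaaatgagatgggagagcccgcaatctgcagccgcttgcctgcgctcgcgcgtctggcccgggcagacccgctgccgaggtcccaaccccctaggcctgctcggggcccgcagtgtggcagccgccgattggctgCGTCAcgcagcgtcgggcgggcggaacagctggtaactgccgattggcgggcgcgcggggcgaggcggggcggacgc
Catsper3: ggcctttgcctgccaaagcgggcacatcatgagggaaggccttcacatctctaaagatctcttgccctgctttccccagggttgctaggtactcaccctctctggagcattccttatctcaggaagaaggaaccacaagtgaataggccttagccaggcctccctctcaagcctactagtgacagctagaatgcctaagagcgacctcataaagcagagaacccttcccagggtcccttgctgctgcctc
Catsperg1: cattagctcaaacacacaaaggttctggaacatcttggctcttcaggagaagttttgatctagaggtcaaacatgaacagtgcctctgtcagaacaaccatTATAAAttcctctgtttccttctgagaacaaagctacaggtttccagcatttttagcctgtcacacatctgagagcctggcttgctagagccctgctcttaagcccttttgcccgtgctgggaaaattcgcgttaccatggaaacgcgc
The 3 sequences had little in common in base composition: Catsper2 had a GC content of 74.8% and 35 CpG dinucleotides, Catsper3 54.0% and 2, and Catsperg1 46.0% and 5. RefSeq windows of 300 bases, which add 50 bases after the start site, were given for 6 of the 10 genes, with 8 windows in all. TGACG or its reverse complement was in 2 of these 8 windows (Catsper2 and Catsperd) and in 20.8% of 32851 windows of all genes, and the full site TGACGTCA, which contains it, in 0 and in 1.79%. TATAAA or its reverse complement was in 1 of the 8 windows, 149 bases before the Catsperg1 start site shown here, and in 13.6% of all windows. Catsperg1 has another RefSeq window, at chr7:29210876-29211175, without TATAAA. It has a GC content of 59.3% and 9 CpG dinucleotides, so the base composition given for Catsperg1 holds for the start site shown only. These matches describe the letters only.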

How the data were processed

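According to the submitters' notes and the study's methods, the authors trimmed the paired-end reads, aligned them to mm10 with STAR, assigned them to RefSeq genes with the E/M (expectation and maximization) model of Partek and scaled the counts in DESeq2; the deposited table holds these normalized counts per gene and library (treated here as a signal, not as counts). Every value was a whole multiple of 1 step per library (100% within 0.1 reads, tested below 5000 reads), so 1 read is worth 0.869 to 1.21 and 3 reads, taken as the floor, 2.61 to 3.62. No column was left unassigned (0).

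Groups were compared with limma 3.58.1 (R 4.3.3) on log2(normalized count + 1), which understates changes of low genes, over 15389 of 15507 genes, with all 10 libraries, a variance trend and no covariate; a call needs an adjusted p under 0.05, and where stated a fold of 1.5. Low genes were removed with filterByExpr of edgeR on the recovered reads, given the group sizes. edgeR 4.0.16 and DESeq2 1.42.0 ran on the recovered reads as alternatives and called 2241 (authors' size factors), 2243 (TMM) and 2309 genes with fold, against 2209. On data simulated for KI against WT over 15389 genes with 200 changed, limma recovered 200 with 7 false calls. The changed genes were not low ones, and their changes were larger than that of any of the 10 channel genes. No library sets were simulated. The recovery therefore does not measure how well changes as small as those of the channel genes are found.

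Replicate numbers are those of the titles. Deviations from the group means of same-numbered libraries correlated at 0.306, 0.105, 0.280, 0.216 and 0.462. WT library 3 correlated best with KI library 2. The replicate block treats the numbers as pairs, which no stated design gives. Whether these correlations go beyond the split into library sets was not tested. Single values were tested by exact permutation. The 10 genes and all gene lists were chosen with earlier results of these data known. Named genes are the 10 members, Ddx25, the other CatSper subunits and Lrrc52, and up to 4 called genes with the largest change and a mean of at least 50 from each further list. Gene models and lengths came from GENCODE (Biopython 1.88, pandas 2.3.3). Proteins were not analysed here, nor were list genes outside the table.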

Additional observations from a re-analysis of the deposited data

Results flagged for a closer look

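Of 20 groups of 5 libraries (10 genes in WT and KI), 2 held a library that stood apart from the others by Dixon's criterion (gap over range above 0.71), and chance gives about 1 in 20. Catsper1 was at 1397 normalized counts in KI library 4, with the nearest KI library at 1212 (ratio 0.825). Hvcn1 was at 39.1 normalized counts in WT library 4, with the nearest WT library at 32.6 (ratio 0.824). Both values lay on the side of the opposite genotype, and without either library the gene was still called.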

How the results depend on the processing

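The 26 alternatives were run for the calls and fold changes of the channel genes, the lists and all genes. They were not run for shares, sums of genes, ratios or levels per kilobase. Without any 1 library the channel genes called lower numbered 5 to 5 and those higher 1 to 1, and the genes called with fold of all genes 1971 to 2303. The channel genes called lower were 3 under scaling on spermatocyte markers, 0 under scaling on round spermatid markers and 3 in libraries 4 and 5 alone, where 0 were called higher (Hvcn1 adjusted p = 0.102, limma). Scaling on round spermatid markers called 4593 genes with fold, and the 5 down-regulated channel genes had adjusted p from 0.436 to 0.988 in limma. Log2 fold changes turned positive for Catsper4 under scaling to totals (0.057), on round spermatid markers (0.26) and in libraries 1 to 3 alone (0.19), for Catsperg2 under scaling to totals (0.13), on spermatocyte markers (0.0088) and on round spermatid markers (0.33), and on round spermatid markers for Catsperb (0.13) and Catsperd (0.17). The median log2 fold change of all genes was 0.03 and became 0.25 (totals), 0.12 (upper quartile), 0.13 (spermatocyte markers) and 0.45 (round spermatid markers). The share of higher calls was 42.7%, and 73.1%, 55.8%, 54.0% and 88.1% in that order, and 30.3% in libraries 4 and 5 alone. With the replicate block, Catsperb (adjusted p = 0.00565) and Catsperd (0.00923) were called as well (limma), and no other call among the 10 genes changed. A term for library set in place of the block called the same genes. Channel genes lower with a fold of 1.5 numbered 0 to 3. Where a result changed, the cause was not tested, except that libraries 4 and 5 alone leave 2 libraries a group. Depth limits Hvcn1 most, at 27 to 71 reads.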
